A study of Mus musculus with 9 samples.

Results

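The genes described here encode enzymes that write or erase methyl and acetyl groups on histones and methyl groups on DNA. They were taken by symbol: every row of the count table whose name begins with Kdm, Kmt, Hdac, Sirt, Dnmt or Kat followed by a digit, or is Tet1 to Tet3, Ezh1 or Ezh2. The rule itself uses no measured value. The rule found 71 of the 55302 rows, of which 60 passed the filter on low counts and were tested. Other enzymes of the same kinds that carry different symbols, such as Ep300 and Setdb1, fall outside the rule.

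The data are gene-level read counts of dendritic cells sorted from the thymus of C57BL/6 mice at 8 weeks of age. There were 9 libraries, 3 for each of the populations labelled CD301b (replicates 1, 3 and 4), SIRPa and XCR1 (replicates 1 to 3 each), and no genetic change or treatment is named for any of them. The names are those of surface proteins: the chemokine receptor XCR1 marks cDC1, the conventional dendritic cells of type 1, SIRPα marks cDC2, those of type 2, and CD301b is a lectin on some cDC2. The sources used here do not give the sort gates, 1 label calls the cells thymocytes where another calls them thymic dendritic cells, and the study's design names 3 mice without saying which library came from which animal or whether animals were pooled. CD301b libraries carry the numbers 1, 3 and 4, so the numbers do not settle it, and p-values cover only the spread among these libraries, which may be technical.

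Chromatin modifying enzymes set the marks that chromatin proteins read. Lysine methyltransferases (KMT and EZH) add methyl groups to histone tails and lysine demethylases (KDM) take them off, acetyltransferases (KAT) add acetyl groups and deacetylases (HDAC and sirtuins) remove them. DNA methyltransferases (DNMT) methylate cytosine in CpG pairs, and TET dioxygenases oxidise that methyl group as a step toward its removal. Dendritic cells use such marks while they differentiate and when they switch on inflammatory genes, and DNMT3A and TET2 are among the genes most often mutated in human blood stem cell clones.

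The sequence context of Dnmt3a, Dnmt1, Tet3 and Kdm5b is shown first. The annotated starts of Dnmt3a and those of Dnmt1 differ in CpG content within the gene, and differences of Dnmt3a, Tet3 and Kdm5b are described below. Gene-level counts do not show which start these cells use. Each line gives the 250 bases before a RefSeq transcription start (assembly GRCm38.p6), 5′ to 3′ on the gene's strand, with every CpG in capitals. Dnmt3a and Dnmt1 each have 3 RefSeq windows, of which 2 are printed: the window of Dnmt3a left out overlaps its first, and that of Dnmt1 left out reaches into annotated exon.
Dnmt3a, chr12:3806730-3806979, plus strand: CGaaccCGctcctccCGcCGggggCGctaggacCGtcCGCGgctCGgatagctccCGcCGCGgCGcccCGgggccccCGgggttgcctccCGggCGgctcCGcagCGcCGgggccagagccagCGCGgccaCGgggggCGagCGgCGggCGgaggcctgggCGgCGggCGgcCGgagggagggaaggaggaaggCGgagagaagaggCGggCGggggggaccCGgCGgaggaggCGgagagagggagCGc
Dnmt3a, chr12:3891494-3891743, plus strand: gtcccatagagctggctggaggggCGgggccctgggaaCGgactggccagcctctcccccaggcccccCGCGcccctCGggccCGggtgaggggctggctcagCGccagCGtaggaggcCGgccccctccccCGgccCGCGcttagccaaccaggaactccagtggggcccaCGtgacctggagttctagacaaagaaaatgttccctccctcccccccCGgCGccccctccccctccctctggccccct
Dnmt1, chr9:20959889-20960138, minus strand: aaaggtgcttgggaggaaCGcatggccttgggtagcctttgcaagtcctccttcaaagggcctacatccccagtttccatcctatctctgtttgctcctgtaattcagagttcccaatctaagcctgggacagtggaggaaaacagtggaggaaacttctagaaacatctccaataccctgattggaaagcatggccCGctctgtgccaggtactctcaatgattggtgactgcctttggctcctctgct
Dnmt1, chr9:20952980-20953229, minus strand: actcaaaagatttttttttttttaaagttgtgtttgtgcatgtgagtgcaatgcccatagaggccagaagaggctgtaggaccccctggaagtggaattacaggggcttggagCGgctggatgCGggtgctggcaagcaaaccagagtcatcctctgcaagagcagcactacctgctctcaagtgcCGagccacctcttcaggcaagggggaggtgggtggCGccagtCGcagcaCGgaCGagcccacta
Tet3, chr6:83441679-83441928, minus strand: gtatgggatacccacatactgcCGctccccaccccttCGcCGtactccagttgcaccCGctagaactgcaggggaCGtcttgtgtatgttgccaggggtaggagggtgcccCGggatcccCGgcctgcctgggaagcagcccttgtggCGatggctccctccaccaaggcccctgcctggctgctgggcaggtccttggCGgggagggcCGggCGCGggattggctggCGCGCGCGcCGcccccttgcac
Kdm5b, chr1:134559928-134560177, plus strand: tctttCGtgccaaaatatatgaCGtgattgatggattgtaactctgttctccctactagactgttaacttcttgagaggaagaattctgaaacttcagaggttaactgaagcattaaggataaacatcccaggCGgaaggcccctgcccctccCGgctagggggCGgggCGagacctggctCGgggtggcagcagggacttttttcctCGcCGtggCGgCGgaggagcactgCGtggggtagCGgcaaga

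The upstream window of Dnmt3a at its most upstream start held 38 CpG pairs and 82.4% G and C, the overlapping one not printed held 40, and the window at its most downstream start held 15. Dnmt1 held 2 CpG pairs at its most upstream start, 7 at the next and 26 in the most downstream window, which is not printed. Tet3 had 17 and Kdm5b 13. RefSeq windows matched 51 of the members, in 76 windows, with a median of 15 CpG pairs against 6 over all 32851 windows of the same length, and a median GC content of 61.2% against 52.4%. Hdac1, Kdm6b, Kmt2e and Kdm3b had no matching entry.

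Letters matching the binding motifs of factors known in dendritic cells or in dividing cells were searched on both strands. The E2F letters TTTCCCGC or TTTGGCGC were in 2.63% of the member windows (Kmt5c and Sirt4) and 1.3% of all windows. The ETS-IRF letters (GGAA, any 2 bases, GAAA) were in 1.32% (Kdm8) against 2.3%, and the interferon response letters (GAAA, any 2 bases, GAAA), which can overlap them, were in 1.32% (Kat5) against 2.98%. The STAT6 letters (TTC, any 4 bases, GAA) were in 2.63% (Hdac4 and Sirt6) against 5.85%, and the AP-1 letters TGANTCA in 9.21% (Dnmt3aos, Hdac9, Kat2b, Kat8, Kdm3a, Kdm4a and Kdm5c) against 6.75%. None of the printed windows held any of these letters. The counts concern these letters in these windows alone.

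Libraries held 20246092 to 25438864 counts, and the members took 0.502 to 0.571% of them. Levels are CPM, counts scaled to a common library size with TMM factors, and 3 counts in a library stood for 0.119 to 0.15 CPM. The sorted populations carried the transcripts they are named for: Xcr1 stood at 766 ± 96.7 CPM (SD, n = 3 per population, as in all later means) in XCR1, Mgl2, which encodes CD301b, at 624 ± 58.2 CPM in CD301b, and Sirpa at 646 ± 53.7 CPM in CD301b and 774 ± 58.6 CPM in SIRPa against 12.5 ± 3.06 CPM in XCR1. Xcr1 was lower in CD301b and in SIRPa than in XCR1. Mgl2 was higher in CD301b than in SIRPa, and higher in SIRPa than in XCR1 (edgeR, adjusted p under 0.05 for each). Summed levels of 9 cDC2 markers were 2461 to 2840 CPM in CD301b, 1779 to 1910 in SIRPa and 54.5 to 76.7 in XCR1, and those of 8 cDC1 markers 1572 to 1959, 1443 to 1698 and 7318 to 8844. Transcripts used as markers of other cell types were found too, given in the order CD301b, SIRPa and XCR1. The 12 macrophage markers summed to 1673 to 1917, 2604 to 3029 and 189 to 204 CPM. Sums of 18 thymocyte and T cell markers were 560 to 1154, 779 to 1155 and 250 to 1051. Those of 10 plasmacytoid dendritic cell markers were 580 to 711, 475 to 511 and 124 to 159. The 10 B cell markers, of which Vpreb3 was at 0 everywhere, summed to 7.73 to 8.66, 20 to 30.8 and 2.44 to 16.6 CPM. For 10 thymic epithelial markers the sums were 94.2 to 130, 53.3 to 59.9 and 32.9 to 57.2 CPM. In sorted bulk RNA, fewer cells of a type and less RNA per cell cannot be told apart. Neither can other cells and expression of these markers by the sorted cells themselves.

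As a group the modifying enzymes had a higher median level per kb than all tested genes. Per kb of annotated exon, the median level of the 60 tested members was 7.95 CPM per kb against 3.4 over all tested genes with an annotated length. Their median coefficient of variation within a population (the middle value of the 3 populations for each gene) was 13.3% against 22% over all tested genes. That value covers the spread among replicate libraries and leaves differences between populations out. The highest levels per kb were those of Hdac1, a class I deacetylase (34.2 CPM per kb over the 9 libraries), Kat6a, an acetyltransferase of the MYST family (33.8), Dnmt1, the maintenance DNA methyltransferase (30.3), Kmt2d, an H3K4 methyltransferase of enhancers (26.2), and Kdm6b, an H3K27 demethylase (25.6). At the low end stood Kdm4d, an H3K9 demethylase (0.34), the antisense transcript Dnmt3aos (0.386), the mitochondrial sirtuin gene Sirt5 (0.424) and Tet1 (0.554). The mean was highest in CD301b for 22 members, in SIRPa for 12 and in XCR1 for 26, though most of these orders rest on differences that did not pass the test.

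**Figure D1:**
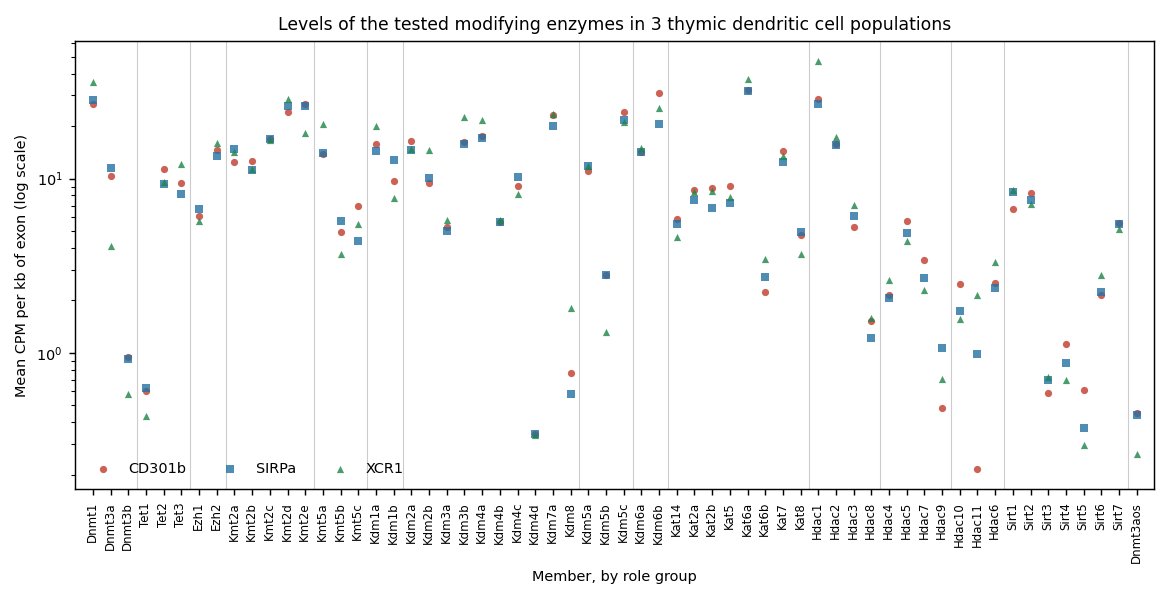
Mean level of each tested member (x axis, by role group) as CPM per kb of exon on a log axis, with circles for CD301b, squares for SIRPa and triangles for XCR1 (3 libraries each). Most members have 3 symbols close together. Dnmt3a and Kdm5b are lowest in XCR1, and Hdac11 is lowest in CD301b.

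Few members passed the test, and the share was near or under that of all genes in each comparison. Between CD301b and SIRPa, 2 of 60 members (3.33%) passed at an adjusted p under 0.05 in edgeR's quasi-likelihood test, where 4.28% of all 15417 tested genes did. Of these 2, CD301b was higher in 1 and lower in 1, where 2.2% and 2.08% of all genes were. Between CD301b and XCR1, 10 members (16.7%) passed against 22.6% of all genes. For SIRPa and XCR1 the values were 11 members (18.3%) against 24.7%. By direction, CD301b was higher than XCR1 in 3 members and lower in 7, where 13.5% and 9.12% of all genes were, and SIRPa was higher than XCR1 in 5 and lower in 6, where 13.9% and 10.7% were. The 2 comparisons with XCR1 share its libraries, so their member lists are not independent of each other.

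At the median, the estimated differences of the members were smaller than those of all tested genes. For CD301b and SIRPa, 55 of 60 members (91.7%) had estimates within 1.5-fold, against 71.5% of all tested genes, and the median absolute log2 fold change was 0.14 against 0.30. Between CD301b and XCR1 the shares were 80% and 56.4%, with medians of 0.34 and 0.48. For SIRPa and XCR1 they were 85% and 55.5%, with medians of 0.31 and 0.50. The signed medians of the members were 0.03, 0.00 and -0.05 in the 3 comparisons, beside 0.01, 0.05 and 0.06 over all genes. Members have higher counts than the median gene (45 against 12.4 CPM), which narrows their estimates, and these shares were not compared at matched levels.

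**Figure D2:**
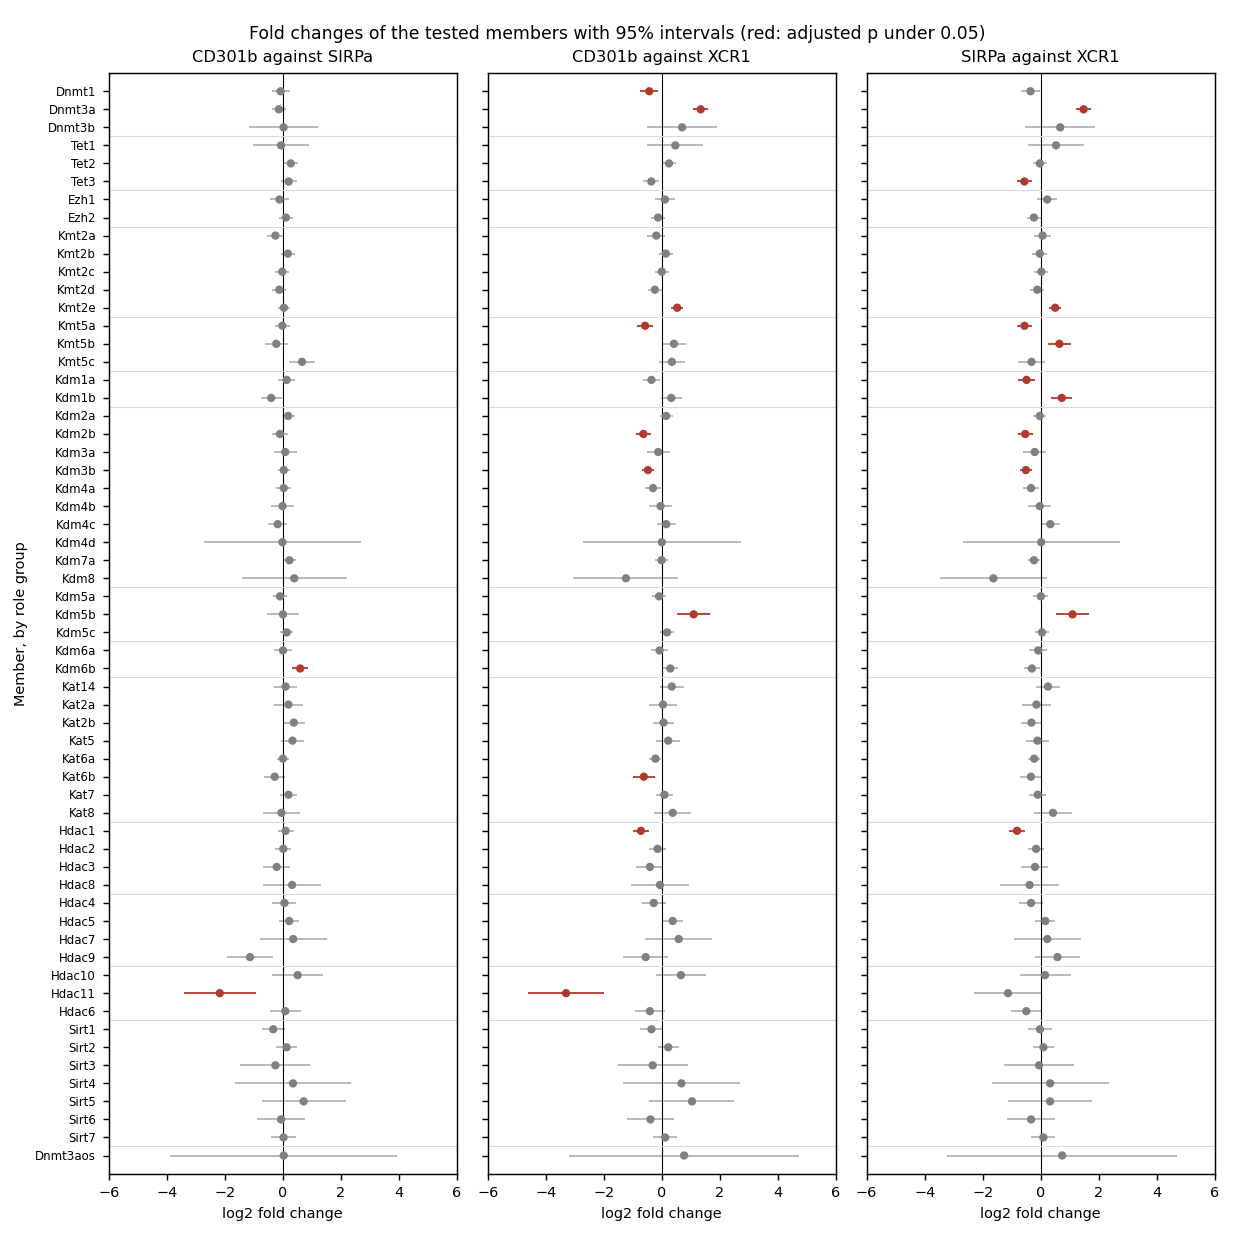
Log2 fold change (x axis) of each tested member (y axis, by role group) in the 3 comparisons, with points for estimates, bars for 95% intervals and red for an adjusted p under 0.05. Red points number 2, 10 and 11 from left to right, and Hdac11 lies farthest from 0 in the comparisons of CD301b.

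Among the DNA methyltransferases the largest difference was that of Dnmt3a, which encodes a de novo methyltransferase (chromosome 12, 3806007 to 3914443, plus strand, GRCm38). Dnmt3a read 188, 163 and 168 CPM in CD301b replicates 1, 3 and 4, 225, 167 and 178 CPM in SIRPa and 66.2, 67.2 and 70.9 CPM in XCR1. All 6 CD301b and SIRPa libraries lay above all 3 XCR1 libraries, and CD301b and SIRPa overlapped. CD301b was 2.54-fold higher than XCR1 (log2 fold change 1.34 ± 0.12 SE, adjusted p = 3.76e-08), and SIRPa was 2.79-fold higher (1.48 ± 0.12, adjusted p = 8.68e-09). The log2 fold change between CD301b and SIRPa was -0.14 with a 95% interval from -0.39 to 0.12. Macrophage markers are also high in these populations, at 1673 to 1917 CPM in CD301b and 2604 to 3029 in SIRPa against at most 204 in XCR1. The part of other cells in the Dnmt3a difference was not tested.

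Dnmt1, whose product copies methylation onto the new strand after DNA replication, leaned the other way (chromosome 9, 20907209 to 20959888, minus strand). It read 193, 238 and 159 CPM in CD301b, 182, 238 and 203 CPM in SIRPa and 266, 222 and 308 CPM in XCR1. The highest CD301b and SIRPa libraries exceeded the lowest XCR1 library, so the groups overlap. CD301b was 1.35-fold lower than XCR1 (-0.43 ± 0.15, adjusted p = 0.0451), and SIRPa did not pass (-0.35 ± 0.15, adjusted p = 0.0972). The CD301b call was lost without CD301b replicate 1 (adjusted p = 0.121) or 4 (0.149), without SIRPa replicate 3 (0.0582), and without XCR1 replicate 1 (0.106) or 3 (0.172). Dnmt3b, the other de novo enzyme, was at 4.82 ± 1.04, 4.73 ± 1.6 and 2.96 ± 1.86 CPM, reading 3.9, 5.95 and 4.6 in CD301b, 4.97, 6.19 and 3.02 in SIRPa and 1.25, 4.94 and 2.7 in XCR1. These groups overlap, and no Dnmt3b comparison passed (smallest adjusted p = 0.46).

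The balance of the maintenance and de novo genes can be set within a library, free of its scaling. The ratio of Dnmt3a to Dnmt1 counts per kb was 0.431, 0.302 and 0.469 in CD301b, 0.549, 0.311 and 0.388 in SIRPa and 0.11, 0.134 and 0.102 in XCR1. Every XCR1 library lay below every other library in this ratio. The ratio restates the differences of both genes and was not tested on its own.

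Cell cycle genes differed in the same direction as Dnmt1, a gene known to be high in dividing cells. The summed level of 20 cell cycle genes was 1871 to 1961 CPM in CD301b, 1450 to 1859 in SIRPa and 2661 to 3416 in XCR1. Of the 20, 14 were lower in CD301b than in XCR1 and 19 lower in SIRPa than in XCR1, where 9.12% and 10.7% of all tested genes were. Between CD301b and SIRPa none passed (edgeR, 0 of 20, and 1 of 20 without the low-count filter), beside 4.28% of all tested genes. The part of cell division in the differences of Dnmt1 and of the other members higher in XCR1 was not tested.

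Dnmt3l, which encodes a cofactor of the de novo enzymes without catalytic activity of its own, did not pass the count filter. It had 9, 26 and 28 counts in the SIRPa libraries, 0, 7 and 0 in CD301b and 0 in all 3 XCR1 libraries, where up to 0.15 CPM is allowed by a count of 0. Its neighbour Aire, a transcriptional regulator of self-antigens in thymic epithelium, shares 67 exonic bases with it on the opposite strand. Aire stood at 8.99 ± 0.224 CPM in SIRPa, 1.67 ± 0.3 in CD301b and 1.75 ± 0.516 in XCR1, lower in CD301b than in SIRPa (-2.43 ± 0.55, adjusted p = 0.0107) and higher in SIRPa than in XCR1 (2.36 ± 0.54, adjusted p = 0.00252). Whether counting used strand is not stated, so reads of the shared bases cannot be assigned. Of the remaining low members, Dnmt3c, Kdm4dl, Kdm6bos, Dnmt3bos, Dnmt3a-ps1, Kat6b-ps1 and Kat6b-ps2 had 0 counts everywhere, Dnmt3l-ps1 had 8 in all and Kat2b-ps 2. Dnmt3aos passed the filter at under 2 CPM in every library and did not pass the test.

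Tet3 was the only TET gene to pass. It read 130, 146 and 194 CPM in CD301b, 130, 146 and 134 CPM in SIRPa and 221, 190 and 193 CPM in XCR1 (chromosome 6, 83362373 to 83459084, minus strand). XCR1 lay above every SIRPa library, and CD301b replicate 4 reached the XCR1 range. SIRPa was 1.48-fold lower than XCR1 (-0.56 ± 0.13, adjusted p = 0.00265). CD301b missed the threshold (-0.36 ± 0.13, adjusted p = 0.0515) and passed it in 8 of 16 alternative settings, with a log2 fold change of -0.56 and adjusted p = 0.00133 without CD301b replicate 4.

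Tet2, which lacks a DNA-binding CXXC domain of its own, read 177, 171 and 224 CPM in CD301b, 149, 160 and 162 CPM in SIRPa and 175, 148 and 158 CPM in XCR1. CD301b and SIRPa did not overlap, but no comparison passed (smallest adjusted p = 0.15). Tet1 was low, with 7.25, 5.37 and 15.3 CPM in CD301b, 12.3, 8.52 and 8.15 in SIRPa and 2.84, 6.03 and 11.2 in XCR1, all overlapping. Within a library the Tet3 to Tet2 ratio of counts per kb was 0.745, 0.865 and 0.876 in CD301b, 0.879, 0.919 and 0.833 in SIRPa and 1.28, 1.3 and 1.23 in XCR1. Counts per kb of Tet3 exceeded those of Tet2 in the 3 XCR1 libraries and in none of the others, a description that was not tested.

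**Figure D3:**
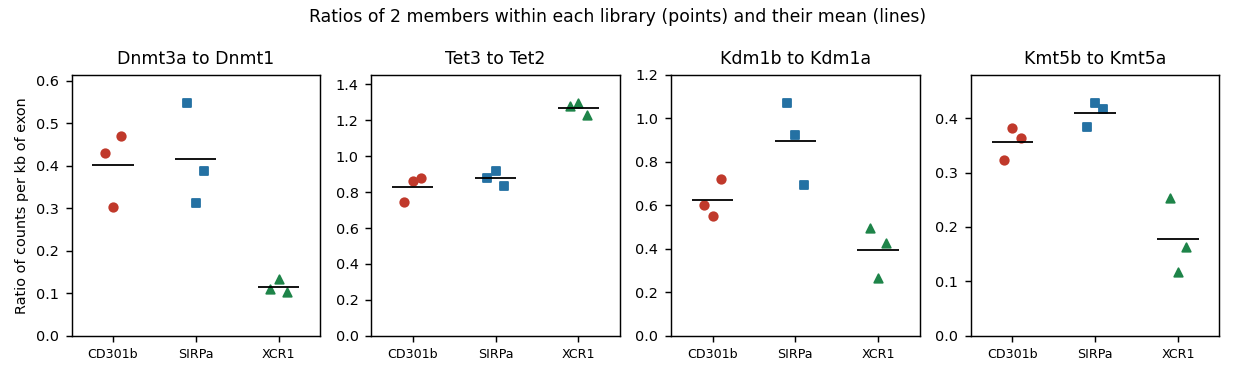
Ratio of counts per kb of exon (y axis) between 2 members in each library (points) and the mean of each population (lines), for CD301b, SIRPa and XCR1. XCR1 libraries lie apart from both other populations for Dnmt3a to Dnmt1, Tet3 to Tet2, Kdm1b to Kdm1a and Kmt5b to Kmt5a.

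The H3K27 methyltransferases of Polycomb repressive complex 2 did not pass in any comparison. Ezh2, the form known in dividing cells, was at 97.1 ± 1.73 CPM in CD301b, 90.3 ± 7.91 CPM in SIRPa and 106 ± 7.14 in XCR1. Its 95% intervals for the log2 fold change against XCR1 ran from -0.37 to 0.12 for CD301b and from -0.48 to 0.01 for SIRPa. Ezh1 was at 45.6 ± 4.09, 49.4 ± 7.51 and 42.3 ± 4.92 CPM. The ratio of Ezh2 to Ezh1 counts per kb was 2.38 ± 0.233, 2.06 ± 0.273 and 2.82 ± 0.36. CD301b overlapped both others in this ratio, while every XCR1 library lay above every SIRPa library, a description that was not tested.

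Of their opponents, the H3K27 demethylases, Kdm6b (also called JMJD3, known as an inflammation-induced gene of macrophages) was 1 of the 2 members that passed between CD301b and SIRPa (chromosome 11, 69398508 to 69413675, minus strand). Kdm6b read 179, 219 and 249 CPM in CD301b, 136, 134 and 156 CPM in SIRPa and 208, 156 and 163 CPM in XCR1. All CD301b libraries lay above all SIRPa libraries, and XCR1 overlapped both. CD301b was 1.51-fold higher than SIRPa (0.60 ± 0.13, adjusted p = 0.00997). The call was lost without SIRPa replicate 1 (0.56, adjusted p = 0.0634) or SIRPa replicate 2 (0.55, adjusted p = 0.062). Against XCR1 the log2 fold change was 0.29 ± 0.13 for CD301b (adjusted p = 0.126) and -0.30 ± 0.13 for SIRPa (0.108).

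The summed level of immediate early genes, which respond within minutes to stimulation or tissue digestion, was also higher in CD301b than in SIRPa. The sum of 16 such genes was 2192 to 2605 CPM in CD301b and 1623 to 1786 in SIRPa, without overlap, and 1695 to 2091 in XCR1. Between CD301b and SIRPa 5 of 16 were higher (Egr2, Atf3, Egr1, Btg2 and Fos) and none lower, where 2.2% and 2.08% of all tested genes were. Against XCR1 the list was mixed, with 7 higher and 4 lower in CD301b and 4 higher and 6 lower in SIRPa. The part of immediate early genes in the Kdm6b difference was not tested. Kdm6a, the X-linked H3K27 demethylase, read 111, 101 and 147 CPM in CD301b, 122, 128 and 107 in SIRPa and 139, 103 and 137 in XCR1, all overlapping, and its 95% interval between CD301b and SIRPa ran from -0.30 to 0.31.

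**Figure D4:**
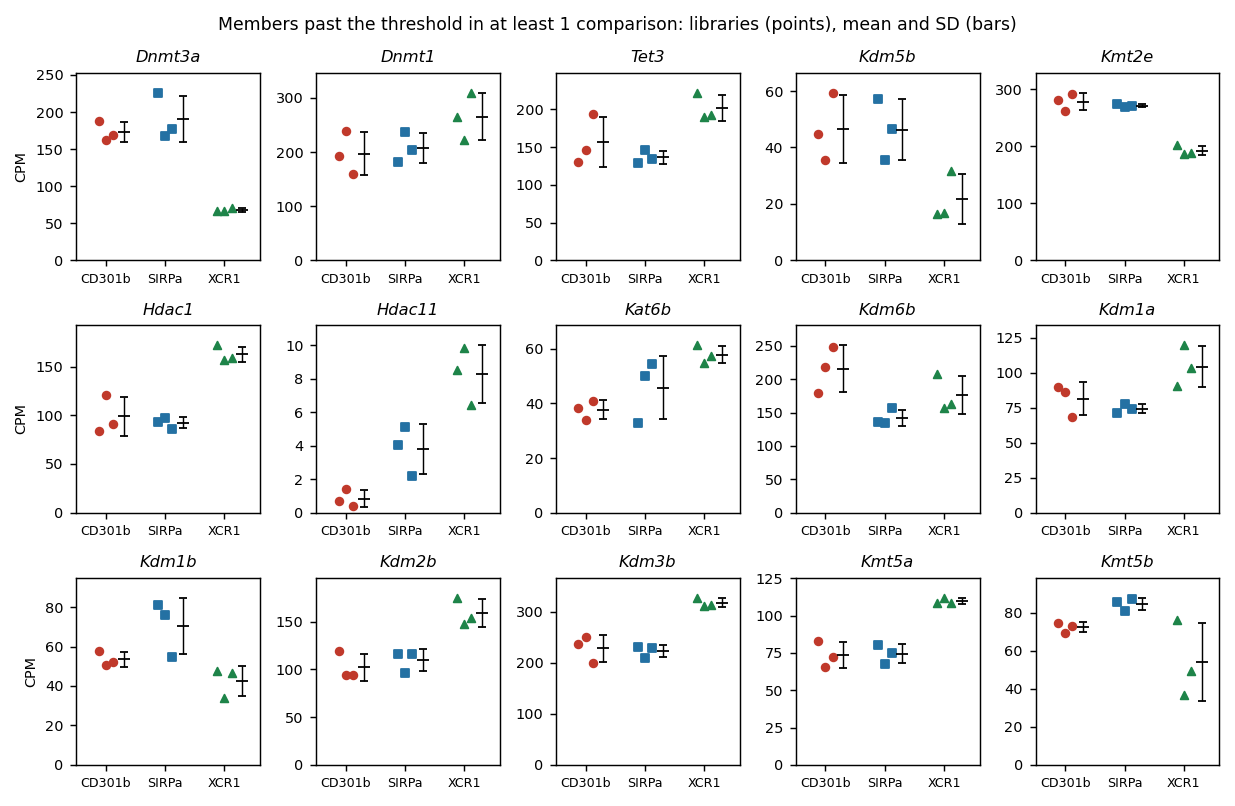
CPM (y axis, from 0) of the 15 members that passed in at least 1 comparison, with 1 point per library and the mean and SD beside each population. XCR1 stands below CD301b and SIRPa for Dnmt3a, Kdm5b and Kmt2e and above them for Hdac1, Kdm2b, Kdm3b and Kmt5a, without overlap.

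In the KMT2 family Kmt2e alone passed. It is the other members of the family that methylate H3K4 at promoters and enhancers. Kmt2e is the divergent member, with a PHD finger that binds methylated H3K4. It read 281, 262 and 291 CPM in CD301b, 274, 269 and 270 CPM in SIRPa and 201, 187 and 188 CPM in XCR1. Every XCR1 library was below the other 6. CD301b was 1.45-fold higher than XCR1 (0.53 ± 0.10, adjusted p = 0.000258) and SIRPa 1.41-fold higher (0.50 ± 0.10, adjusted p = 0.000508). Of its exonic bases 9.31% are also exons of Srpk2 on the opposite strand.

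The other KMT2 genes were close to level. Kmt2c, an enhancer methyltransferase, read 309, 312 and 400 CPM in CD301b, 381, 315 and 336 in SIRPa and 348, 313 and 357 in XCR1, with a 95% interval from -0.23 to 0.24 between CD301b and XCR1. Kmt2a, a target of leukaemic translocations, read 214, 166 and 240 CPM in CD301b, 274, 230 and 236 in SIRPa and 273, 186 and 249 in XCR1. The groups of both genes overlap in each comparison. Kmt2d, the highest of the family per kb, was at 481 ± 54, 522 ± 16.4 and 567 ± 93.9 CPM, and Kmt2b at 120 ± 8.72, 107 ± 4.61 and 109 ± 13.6.

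Among the KDM5 genes, which erase H3K4 methylation, Kdm5b differed (chromosome 1, 134560171 to 134635285, plus strand). Kdm5b read 44.8, 35.5 and 59.2 CPM in CD301b, 57.1, 35.4 and 46.4 CPM in SIRPa and 16.3, 17 and 31.8 CPM in XCR1. The highest XCR1 library lay just under the lowest of the other 6. CD301b was 2.14-fold higher than XCR1 (1.10 ± 0.26, adjusted p = 0.00548), and SIRPa was also 2.14-fold higher (1.09 ± 0.26, adjusted p = 0.00516). Between CD301b and SIRPa the 95% interval ran from -0.54 to 0.55. Kdm5b is a low member of its family: per kb it stood at 2.3 CPM over the 9 libraries, beside 11.5 for Kdm5a and 22.3 for Kdm5c.

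Kdm5a read 147, 158 and 163 CPM in CD301b, 142, 164 and 194 in SIRPa and 147, 180 and 172 in XCR1. X-linked Kdm5c read 179, 162 and 171, 165, 154 and 146, and 169, 140 and 140 CPM in the same order of populations. Neither passed, and the groups of both overlap. Kdm5d, the Y-linked copy, had 0 counts in all 9 libraries, as had Uty, Ddx3y and Eif2s3y, other genes of the Y chromosome, while Xist stood at 794 ± 289 CPM in CD301b, 766 ± 26.4 CPM in SIRPa and 586 ± 131 in XCR1.

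The amine oxidase demethylases Kdm1a and Kdm1b, which act on H3K4 and belong to corepressor complexes or gene bodies, passed in opposite directions between SIRPa and XCR1. Kdm1a (LSD1) read 90, 86.4 and 68.3 CPM in CD301b, 71.3, 77.7 and 74 CPM in SIRPa and 90.3, 120 and 103 CPM in XCR1. The XCR1 libraries lay above all others, by a narrow margin over CD301b replicate 1. SIRPa was 1.4-fold lower than XCR1 (-0.49 ± 0.14, adjusted p = 0.0117), a call lost without XCR1 replicate 2 (-0.38, adjusted p = 0.0821).

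Kdm1b (LSD2) read 57.5, 50.5 and 52.4 CPM in CD301b, 81.2, 76.1 and 54.4 CPM in SIRPa and 47.5, 33.7 and 46.7 CPM in XCR1. SIRPa lay above XCR1 throughout and overlapped CD301b. SIRPa was 1.66-fold higher than XCR1 (0.73 ± 0.17, adjusted p = 0.00314), and CD301b did not pass against either. The Kdm1b to Kdm1a ratio of counts per kb was 0.626 ± 0.0878 in CD301b, 0.897 ± 0.191 in SIRPa and 0.396 ± 0.118 in XCR1. Of the exonic bases of Kdm1b 9.19% are shared with Dek on the opposite strand.

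The KMT5 genes write H4K20 methylation in steps: Kmt5a adds the first methyl group and is known as a gene of dividing cells, and Kmt5b and Kmt5c add the next ones. Kmt5a read 83.2, 65.7 and 72.3 CPM in CD301b, 80.4, 67.9 and 75.2 CPM in SIRPa and 109, 112 and 108 CPM in XCR1. XCR1 lay above all other libraries. CD301b was 1.49-fold lower than XCR1 (-0.57 ± 0.13, adjusted p = 0.002) and SIRPa 1.47-fold lower (-0.56 ± 0.13, adjusted p = 0.00229).

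Kmt5b went the other way between SIRPa and XCR1. It read 75, 69.7 and 73 CPM in CD301b, 85.8, 80.9 and 87.3 CPM in SIRPa and 76.5, 36.7 and 49.4 CPM in XCR1. XCR1 replicate 1 stood just above the CD301b range and the other two were low. SIRPa was 1.56-fold higher than XCR1 (0.64 ± 0.19, adjusted p = 0.0174), a call lost without SIRPa replicate 1 (adjusted p = 0.0587) or 3 (0.0613) and without XCR1 replicate 2 (0.43, adjusted p = 0.084) or 3 (0.0575). Kmt5c read 28.2, 27.7 and 27.6 CPM in CD301b, 20.9, 16.8 and 14.9 in SIRPa and 26.7, 18.6 and 20.4 in XCR1. CD301b lay above SIRPa without overlap, yet the difference did not pass (0.66 ± 0.22, adjusted p = 0.103).

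Of the 10 tested demethylases of the KDM2, KDM3, KDM4, KDM7 and KDM8 families, which act mainly on H3K36 and H3K9, 2 passed. Both were lower in CD301b and in SIRPa than in XCR1, where 9.12% and 10.7% of all tested genes were lower. Kdm2b, which brings a variant Polycomb complex to CpG islands, read 119, 94.3 and 93.8 CPM in CD301b, 116, 96.4 and 116 CPM in SIRPa and 175, 147 and 154 CPM in XCR1. CD301b was 1.55-fold lower than XCR1 (-0.63 ± 0.13, adjusted p = 0.000794) and SIRPa 1.45-fold lower (-0.53 ± 0.13, adjusted p = 0.00331). Kdm3b, an H3K9 demethylase, was at 228 ± 26.1 CPM in CD301b, 223 ± 11.2 CPM in SIRPa and 317 ± 8.58 in XCR1. Its log2 fold changes against XCR1 were -0.48 ± 0.10 (adjusted p = 0.00173) and -0.51 ± 0.10 (0.000833). Both genes separated XCR1 from every other library, and 24.6% of the exonic bases of Kdm3b are shared with the opposite-strand transcript Gm26538.

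The other 8 members of these families did not pass. Kdm4b read 29.1, 29.6 and 23.8 CPM in CD301b, 31.9, 27.8 and 23.3 in SIRPa and 26.3, 29 and 29.6 in XCR1. Kdm4d stayed at or under 1.71 CPM in every library. Kdm8 read 3.5, 1.8 and 0.147 CPM in CD301b, 1.18, 1.27 and 1.7 in SIRPa and 3.44, 2.42 and 7.04 in XCR1. Both low genes have wide intervals, for Kdm8 from -3.47 to 0.21 between SIRPa and XCR1, so that only large differences were detectable at this depth. Kdm2a (238 ± 18.5, 209 ± 16 and 214 ± 15.8 CPM), Kdm3a (43.6 ± 6.77, 41.1 ± 4.61 and 47.5 ± 13.3), Kdm4a (102 ± 8.97, 99.4 ± 16.4 and 125 ± 5.21) and Kdm4c (52.9 ± 4.59, 59.8 ± 12.8 and 47.5 ± 2.71) are given in the order CD301b, SIRPa and XCR1. The highest of the families per kb was Kdm7a, an H3K9 and H3K27 demethylase, at 234 ± 13.8, 200 ± 14.8 and 235 ± 14.1 CPM.

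Of 8 acetyltransferases 1 passed, and in 1 comparison, beside 4.28, 22.6 and 24.7% of all tested genes in the 3 comparisons. Kat6b, a MYST-family H3 acetyltransferase, read 38.2, 34 and 41 CPM in CD301b, 32.8, 50 and 54.5 CPM in SIRPa and 61.3, 55 and 57.5 CPM in XCR1. XCR1 lay above all other libraries, with SIRPa replicate 3 just below it. CD301b was 1.53-fold lower than XCR1 (-0.62 ± 0.18, adjusted p = 0.0141), a call lost without CD301b replicate 3 (-0.55, adjusted p = 0.0604) or XCR1 replicate 1 (-0.58, adjusted p = 0.0525). SIRPa did not pass (-0.34 ± 0.18, adjusted p = 0.191).

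The paralogue Kat6a was far higher and did not pass: it read 302, 291 and 292 CPM in CD301b, 308, 303 and 270 in SIRPa and 367, 309 and 354 in XCR1, with a 95% interval from -0.20 to 0.21 between CD301b and SIRPa. XCR1 lay above every other library, narrowly, with intervals from -0.43 to -0.01 for CD301b and -0.43 to -0.02 for SIRPa (adjusted p = 0.132 and 0.114). Per kb the levels over all libraries were 33.8 CPM for Kat6a and 2.8 for Kat6b. Kat2b, a subunit of the SAGA and ATAC coactivators, read 36.7, 37.8 and 55 CPM in CD301b, 33.6, 30.9 and 34.8 in SIRPa and 42.9, 39.8 and 41.2 in XCR1, and did not pass. Its paralogue Kat2a read 29.3, 34.4 and 26.4, 32.6, 28.4 and 17.9, and 34.2, 20.1 and 33.1 CPM. Kat7, the HBO1 enzyme, read 82.4, 72.9 and 82.1, 77.3, 72.1 and 58, and 73.2, 80 and 69.7 CPM, and Kat8, which acetylates H4K16, read 15, 12.2 and 14.2, 11.4, 12.7 and 18.6, and 14.2, 10.8 and 6.85 CPM. The groups of Kat2a, Kat7 and Kat8 overlap in each comparison. Kat5, the TIP60 enzyme of the NuA4 complex, was at 31.9 ± 4.83, 25.3 ± 4.02 and 27.3 ± 1.37 CPM, and Kat14, of the ATAC complex, at 27.4 ± 2.15, 25.7 ± 1.76 and 21.6 ± 3.04.

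Hdac1 was the class I deacetylase that passed (chromosome 4, 129516104 to 129542713, minus strand), in both comparisons with XCR1. It read 84, 121 and 91 CPM in CD301b, 93.4, 97.1 and 86.3 CPM in SIRPa and 172, 157 and 159 CPM in XCR1. No library of the other populations reached the XCR1 range. CD301b was 1.65-fold lower than XCR1 (-0.72 ± 0.13, adjusted p = 0.000307) and SIRPa 1.76-fold lower (-0.82 ± 0.13, adjusted p = 7.1e-05). Its close paralogue Hdac2, found in the same corepressor complexes, read 79.5, 61.3 and 70 CPM in CD301b, 66.3, 70.9 and 71.3 in SIRPa and 79.1, 71.9 and 82.1 in XCR1, and did not pass, with a 95% interval from -0.42 to 0.13 between CD301b and XCR1. Hdac8, a low member, read 10.5, 4.15 and 7.39 CPM in CD301b, 3.41, 7.56 and 6.64 in SIRPa and 10.9, 9.07 and 3.04 in XCR1, and Hdac3, the enzyme of the NCOR complex, was at 21.4 ± 4.66, 24.8 ± 3.49 and 28.4 ± 5.71 CPM.

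Hdac11, the class IV deacetylase, had the largest estimated fold among the members that passed, at a low level (chromosome 6, 91156665 to 91174692, plus strand). It read 0.717, 1.38 and 0.391 CPM in CD301b, 4.02, 5.14 and 2.17 CPM in SIRPa and 8.53, 9.83 and 6.41 CPM in XCR1. The 3 populations did not overlap with one another. CD301b was 9.84-fold lower than XCR1 (-3.30 ± 0.62, adjusted p = 0.000408) and 4.51-fold lower than SIRPa (-2.17 ± 0.60, adjusted p = 0.0426), while SIRPa and XCR1 did not differ past the threshold (-1.13 ± 0.57, adjusted p = 0.173). The difference from XCR1 passed in all 16 alternative settings.

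The call for Hdac11 between CD301b and SIRPa did not hold throughout. It was lost without CD301b replicate 1 (adjusted p = 0.12) or 4 (0.101), without SIRPa replicate 1 (0.125) or 2 (0.187) and, through the shared spread, without XCR1 replicate 1 (0.067) or 2 (0.0646). Of the exonic bases of Hdac11 15.4% are shared with the opposite-strand transcript Gm44002. Of the class IIb genes, Hdac6, a mostly cytoplasmic deacetylase of tubulin, read 14.1, 18.8 and 10.9 CPM in CD301b, 12.9, 13.8 and 14.4 in SIRPa and 18.2, 21.1 and 18.9 in XCR1, and Hdac10 read 7.57, 5.41 and 12, 5.73, 4.92 and 6.88, and 6.33, 5.99 and 3.47 CPM. Neither passed in any comparison.

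None of the 4 class IIa genes, whose products shuttle between cytoplasm and nucleus, passed. The shares of all tested genes that passed were 4.28, 22.6 and 24.7% in the 3 comparisons. Hdac9 read 4.02, 7.63 and 9.69 CPM in CD301b, 11, 15.2 and 20.5 CPM in SIRPa and 15.3, 7.08 and 8.92 CPM in XCR1. CD301b lay below SIRPa without overlap (-1.13 ± 0.38, adjusted p = 0.11). Hdac7, a deacetylase known from thymocytes, read 14.3, 28.2 and 27 CPM in CD301b, 15.7, 16.1 and 22.4 CPM in SIRPa and 9.18, 6.94 and 30.2 CPM in XCR1. XCR1 replicate 3, the highest of all, stood more than 20 CPM above the other two XCR1 libraries. The summed thymocyte and T cell markers were 344, 250 and 1051 CPM in XCR1 replicates 1 to 3, so the library high in Hdac7 was also the one high in those markers, and their part was not tested. Hdac4 was at 34.1 ± 5.31, 32.7 ± 7.13 and 41.3 ± 6.44 CPM and Hdac5, the highest of the class per kb, at 50 ± 6.98, 43 ± 2.59 and 38.5 ± 5.44.

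**Figure D5:**
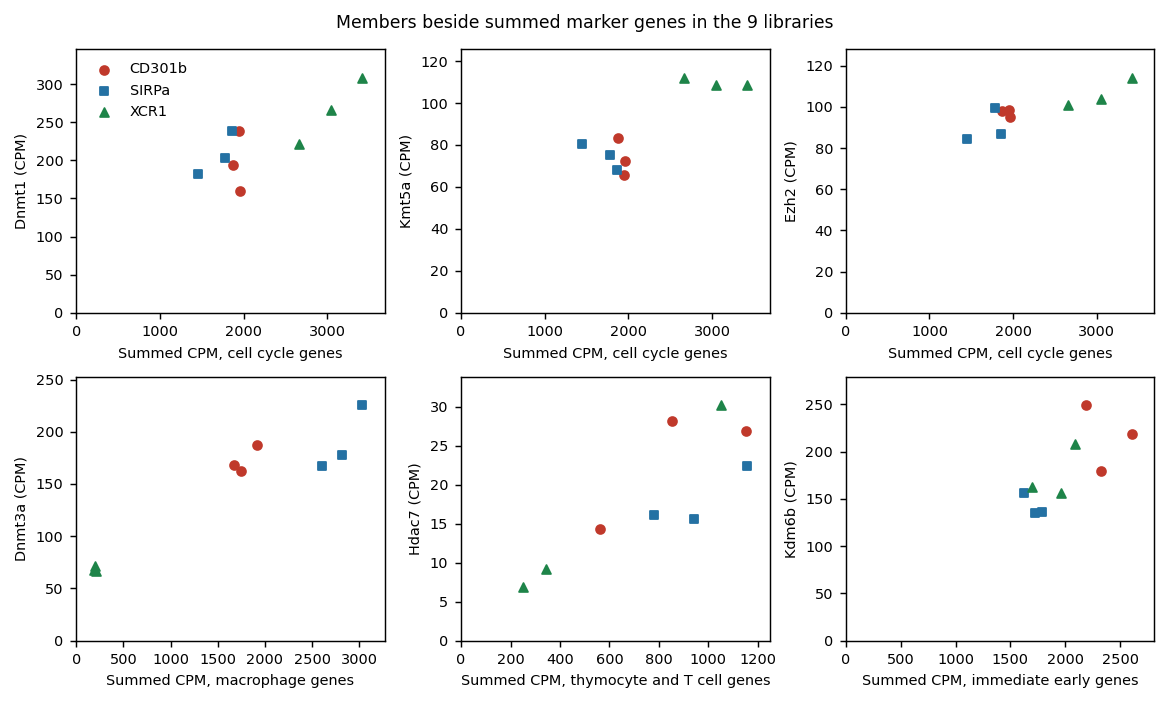
CPM of 6 members (y axes) against the summed CPM of a marker list (x axes) in the 9 libraries, with circles for CD301b, squares for SIRPa and triangles for XCR1. XCR1 replicate 3 stands with high Hdac7 and a thymocyte sum of 1051 CPM, and XCR1 libraries stand at the high end of the cell cycle sum for Dnmt1 and Kmt5a and at the low end of the macrophage sum for Dnmt3a.

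The 7 sirtuins, NAD-dependent deacylases of nucleus, cytoplasm and mitochondria, did not pass in any comparison (edgeR, 0 of 7). Sirt1, a nuclear enzyme and the highest of them per kb (7.87 CPM per kb), was at 35.6 ± 6.4 CPM in CD301b, 44.7 ± 10.5 CPM in SIRPa and 45.5 ± 6.78 in XCR1. Sirt2 and Sirt7 lay between 23 and 47.9 CPM in every library, the nuclear Sirt6 between 4.7 and 10.7, and the mitochondrial Sirt3, Sirt4 and Sirt5 at or under 7.18 CPM. For Sirt5 the estimate between CD301b and XCR1 was 1.04 ± 0.70 (adjusted p = 0.342), with no overlap of the libraries.

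The proteins that work with these enzymes were read from lists chosen by function, with edgeR's test over all genes. Between CD301b and SIRPa, where 4.28% of all tested genes passed, several lists had no call. None of 28 Polycomb subunits, 14 COMPASS subunits, 24 other lysine methyltransferases, 13 other acetyltransferases and 9 arginine methyltransferases passed. Of the other lists, 1 of 31 deacetylase corepressor subunits (Phf21a, lower in CD301b), 1 of 32 acetyltransferase complex subunits (Jade2, lower), 1 of 22 DNA methylation partners (Zbtb38, lower), 1 of 22 bromodomain and chromodomain readers (Sp140, lower) and 1 of 13 other JmjC proteins (Hr, higher) passed. The donor supply enzyme Acss1 was higher in CD301b. The list medians lay between -0.14 and 0.11 beside 0.01 for all genes. Zbtb38, Sp140 and Acss1 each lost the call under 6 or more of the 16 alternatives (largest adjusted p = 0.203), and Phf21a lost it without CD301b replicate 1 or SIRPa replicate 3 (at most 0.0778).

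Hr, a JmjC protein that acts as a corepressor of nuclear receptors and an H3K9 demethylase, stood apart. Hr read 93.8, 104 and 83 CPM in CD301b and 7.38, 9.53 and 10 CPM in SIRPa, and it had 0 counts in all 3 XCR1 libraries. Each population was separate from the others. CD301b was higher than SIRPa by 3.38 ± 0.20 on the log2 scale (adjusted p = 1.23e-08), and both were higher than XCR1 (adjusted p = 3.68e-14 and 1.28e-11), where a count of 0 allows up to 0.15 CPM.

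In the comparisons with XCR1 the partners of the members that passed were mixed, and the counts below stand beside 22.6% of all genes called for CD301b and 24.7% for SIRPa. For Polycomb, CD301b was higher than XCR1 in 1 subunit and lower in 2, and SIRPa higher in 1 and lower in 3. Rbbp7, a histone-binding subunit shared with the Hdac1 complexes, was at 147 ± 9.48 CPM in CD301b, 152 ± 20.2 CPM in SIRPa and 300 ± 6.49 in XCR1 (-1.02 ± 0.11, adjusted p = 4.25e-07, and -0.98 ± 0.11, adjusted p = 7.52e-07). Aebp2, an accessory subunit of PRC2, was higher than in XCR1 (151.6 ± 5.91 CPM) in CD301b (205 ± 46.4, 0.43 ± 0.13, adjusted p = 0.0223) and in SIRPa (259 ± 20.9, 0.77 ± 0.13, adjusted p = 0.000157), the first call being lost without CD301b replicate 1 or 4 or XCR1 replicate 3 (largest adjusted p over the alternatives 0.167). COMPASS subunits that passed were all lower than in XCR1, 2 of 14 in CD301b (Psip1, Hcfc2) and 3 of 14 in SIRPa (Hcfc1, Psip1, Setd1a).

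Among the corepressor subunits CD301b was higher than XCR1 in 3 of 31 and lower in 1, and SIRPa higher in 1 and lower in 2. Bcl6, a repressor that recruits deacetylase complexes, was at 58 ± 0.25 CPM in CD301b, 50.5 ± 3.73 CPM in SIRPa and 125 ± 6.72 in XCR1 (-1.10 ± 0.12, adjusted p = 7.32e-07, and -1.30 ± 0.12, adjusted p = 7.53e-08). Phf21a, a reader of unmethylated H3K4 in the Kdm1a complex, went the other way, at 65.3 ± 12.4, 104.5 ± 9.51 and 38.5 ± 5.45 CPM. CD301b was higher than XCR1 (0.76 ± 0.16, adjusted p = 0.000933) and SIRPa too (1.44 ± 0.16, adjusted p = 4.56e-07). Between SIRPa and XCR1, Bcl6 differed in the same direction as Hdac1, and Phf21a in the direction opposite to Kdm1a.

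For acetyltransferase complexes CD301b was higher than XCR1 in 2 of 32 and lower in 4, and SIRPa higher in 1 and lower in 3. Usp22, the deubiquitinase of SAGA, was at 89.4 ± 11 CPM in CD301b, 70.3 ± 2.68 CPM in SIRPa and 152 ± 13.4 in XCR1 (-0.76 ± 0.12, adjusted p = 8.04e-05, and -1.11 ± 0.12, adjusted p = 7.01e-07). The other acetyltransferases gave 1 higher (Naa60) and 1 lower (Ncoa1) of 13 in each comparison with XCR1. Ep300 and Crebbp, the general coactivators, did not pass, with Ep300 at 332 ± 29.2, 314 ± 24.9 and 328 ± 41.3 CPM.

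Other lysine methyltransferases were lower than in XCR1 in 4 of 24 and higher in 1 for CD301b and for SIRPa, with list medians of -0.27 and -0.21. The higher one was Prdm1, a transcriptional repressor, at 26.4 ± 6.62 CPM in CD301b, 34.8 ± 4.74 CPM in SIRPa and 5.96 ± 2.88 in XCR1 (2.14 ± 0.29, adjusted p = 1.02e-05, and 2.54 ± 0.30, adjusted p = 1.17e-06). Nsd2, an H3K36 methyltransferase, was lower in SIRPa (-0.66 ± 0.13, adjusted p = 0.000433) and in CD301b (-0.39 ± 0.13, adjusted p = 0.0291). Arginine methyltransferases passed in 2 of 9 (Prmt1 and Prmt5, lower in CD301b) and 2 of 9 (Prmt9 higher and Prmt1 lower in SIRPa). Leaving out 1 library ended each of these arginine methyltransferase calls in turn, as it did those of Psip1 and Hcfc2 between CD301b and XCR1 and of Ncoa1 between SIRPa and XCR1, with adjusted p of at most 0.143 over the alternatives.

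For the partners of DNA methylation, CD301b was lower than XCR1 in 3 of 22 and higher in 1, and SIRPa lower in 3 and higher in 2. Hells, a remodeler needed for methylation of repeats, was at 46.3 ± 5.49 CPM in CD301b, 36.6 ± 3.98 CPM in SIRPa and 83.3 ± 5.94 in XCR1 (-0.85 ± 0.15, adjusted p = 0.00021, and -1.19 ± 0.15, adjusted p = 3.7e-06). Uhrf1, which guides Dnmt1 to newly copied DNA, was at 116 ± 9.17, 108 ± 5.75 and 144 ± 10.9 CPM, lower in SIRPa than in XCR1 (-0.42 ± 0.11, adjusted p = 0.00907) and short of the threshold in CD301b (-0.31 ± 0.11, adjusted p = 0.0542). Both are also known as genes of dividing cells, and the cell cycle sums given above were likewise highest in XCR1. The part of cell division in the differences of Hells and Uhrf1 was not tested. Idh1, which makes the cosubstrate 2-oxoglutarate in the cytoplasm, was higher than in XCR1 (CD301b 0.62 ± 0.15, adjusted p = 0.00393, SIRPa 0.93 ± 0.15, adjusted p = 6.87e-05), and its mitochondrial counterpart Idh2 lower (-0.59 ± 0.14, adjusted p = 0.00335, and -0.56 ± 0.14, adjusted p = 0.00459).

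The readers of acetylated and methylated histones that passed were all lower than in XCR1, 7 of 22 in CD301b and 8 of 22 in SIRPa, where 9.12% and 10.7% of all genes were lower and 22.6% and 24.7% passed in either direction. The list medians were -0.23 and -0.19 beside 0.05 and 0.06 over all genes. Those that passed included Sp110 and Sp140, bromodomain proteins known as interferon-induced genes of leukocytes. Sp140 was at 59.1 ± 5.48 CPM in CD301b, 82.4 ± 5.14 CPM in SIRPa and 115 ± 14.5 in XCR1 (-0.96 ± 0.13, adjusted p = 1.01e-05, and -0.49 ± 0.13, adjusted p = 0.00859), and Sp110 differed from XCR1 by -0.94 ± 0.13 (adjusted p = 8.14e-06) and -0.64 ± 0.13 (0.000626). Enzymes of methyl and acetyl donor supply differed too. Shmt2, of mitochondrial one-carbon metabolism, was at 39.9 ± 6.92, 37 ± 4.14 and 76.1 ± 9.74 CPM (-0.93 ± 0.17, adjusted p = 0.000216, and -1.04 ± 0.17, adjusted p = 5.95e-05), and Acss1, a mitochondrial acetyl-CoA synthetase, at 56.9 ± 5.51, 40 ± 2.12 and 92.5 ± 12.5 CPM (-0.70 ± 0.14, adjusted p = 0.000859, and -1.21 ± 0.14, adjusted p = 1.57e-06).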

How the data were processed

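RNA-seq was deposited for 9 libraries of thymic dendritic cells, prepared with a stranded low-input kit. Per the submitters' processing notes, the authors' tools were HISAT2, featureCounts (Subread), edgeR, FastQC, SAMtools and Trimmomatic, with the build mm10. The sources used here give no versions, annotation or strand setting of the counting. The deposited table holds raw read counts per gene. From the labels, 3 libraries formed each population.

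Computed here: 24 symbols turned into dates (0.124 to 0.187% of counts) were left out. edgeR 4.0.16 in R 4.3.3 (filterByExpr, minimum count 10, which left 15417 genes, TMM, glmQLFit with robust estimation, two-sided glmQLFTest) was fitted once over all 9 libraries. P-values were Benjamini-Hochberg adjusted over the genes tested, with 0.05 as the threshold. SE was the log2 fold change over the root of F. Lengths were merged exons of GENCODE M21. Limits for a count of 0 (3 counts) cover counting error only. The fit was also run on simulated counts with spread taken from these data, which checks the procedure and not the calls.

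Members passing with at least 1.5-fold, and the smallest and largest fold of each role group holding a called member, were to be named with every library, though some are given by mean or range. Up to 2 called genes per partner list were to be named, and some of these are left out. The result for 1 gene is not reported here. The members and lists were chosen with earlier results of these data known. Alternatives were DESeq2 1.42.0, upper-quartile scaling, limma-voom (limma 3.58.1), other filters, 6 libraries only, a replicate block and leaving out each library.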

Additional observations from a re-analysis of the deposited data

How the results depend on the processing

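Each result was recomputed under 16 alternatives, 9 of which left out 1 library. Of 23 called differences of members, 17 passed the threshold in every alternative and 6 were lost in at least 1, and none changed sign. Between CD301b and SIRPa 2 members passed, and 1 passed with limma-voom and 1 with only the 6 libraries compared. Leaving out 1 library gave 0 to 2 members there (0 without SIRPa replicate 1 or 2), 9 to 11 for CD301b against XCR1, and 10 to 13 for SIRPa against XCR1. Besides the libraries named with each gene, Hdac11 between CD301b and SIRPa was lost with limma-voom (adjusted p = 0.153) and with 6 libraries (0.143), Dnmt1 between CD301b and XCR1 with 6 libraries (0.0601), and Kmt5b between SIRPa and XCR1 with 6 libraries (0.0503). The causes were not tested. Upper-quartile scaling called 14 members between CD301b and XCR1.

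Deviations from the population mean correlated at 0 to 0.03 between libraries with the same replicate number. Between libraries with different numbers the correlations ran from -0.061 to 0.044. With 3 libraries per population these values cannot settle whether the numbers mark animals. Replicate number 4 occurs only in CD301b, so a block on the number takes up that library. The CD301b contrasts then rest on its replicates 1 and 3. With the replicate number as a block, 2, 13 and 13 members passed in the 3 comparisons. The 2 between CD301b and SIRPa were Hdac9 and Kmt2a, and neither Hdac11 (adjusted p = 0.304) nor Kdm6b (0.0932) passed there. Dnmt1 between CD301b and XCR1 was also lost (0.144). Low genes such as Kdm4d, Kdm8, Sirt4 and Dnmt3aos have intervals too wide to show moderate differences at this depth.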
